A study of Mus musculus with 9 samples.

Results

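The genes described here are 40 mouse genes of the type I interferon response, chosen by a list of symbols. All 40 were matched among the 45535 rows of the table that carry a gene symbol. They comprise Ifnb1, which encodes interferon beta, the receptor chain genes Ifnar1 and Ifnar2, and genes that interferon is known to switch on. Of these 40, 39 reached the minimum mean normalized read count of 10 and were tested, among 18202 genes tested in all. Ifnb1 did not reach it. The series sequenced RNA of dendritic cells from lungs of mice given bleomycin, which scars the lung and serves as a model of fibrosis, and asked how culture changes these cells. All mice had the genotype label C57/BL6j and 7 days of bleomycin. Lungs were digested with collagenase and cells carrying CD103, the integrin encoded by Itgae, were pulled out on magnetic beads. The group called before here was harvested directly (5 samples, treatment label Pre-Culture). The group called after was kept 18 h in RPMI medium with serum and antibiotics (4 samples, treatment label 18h Post-Culture). Both groups had bleomycin, so the comparison is of cultured with uncultured samples, and no lung without bleomycin is used here. A difference in date or batch, which the labels do not give, could not be told apart from culture. The labels do not say how many mice gave a sample, so the p-values measure the spread between these samples. The extraction note speaks of total lung RNA, whereas the cell type label names CD103+ DCs.

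Type I interferons are secreted proteins that warn cells of infection. They bind the receptor of Ifnar1 and Ifnar2, whose kinases Jak1 and Tyk2 phosphorylate transcription factors that join Irf9 to form the complex ISGF3. ISGF3 binds the interferon-stimulated response element (ISRE) in promoters and switches on the genes described here, which sense foreign nucleic acid, block steps of viral replication or feed back on the pathway. In dendritic cells, interferon is known for promoting maturation and the presentation of antigen to T cells, and many of its target genes are also expressed at a low level without infection.

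Depth ran from 14.7 to 35.3 M reads per sample in rows with a symbol, and a single read equalled 0.758 to 1.79 on the normalized scale. All 9 markers of type 1 conventional dendritic cells were above 0 in every sample, which by itself does not test the CD103 label. Their summed normalized count was 126401 to 153903 before and 26975 to 30052 after culture, with 8 of 9 lower and 1 higher. The 5 markers of mature dendritic cells were all higher, and their sum went from 34182 to 37633 before to 155326 to 171691 after culture. Itgae itself had 20174, 17619, 15948, 18534 and 18415 before culture and 1670.3, 1281, 2034 and 1924 after it, a fall of 10.5-fold (log2 fold change -3.41 ± 0.12, adjusted p = 4.45e-11, limma). Markers of other cell types were present too, and most of their sums were lower after culture. Neutrophil markers summed to 12815 to 22059 before and 824 to 1701 after culture, and those of plasmacytoid dendritic cells to 4589.5 to 5202 and 2511 to 2961. Those of monocytes and interstitial macrophages summed to 31479 to 57949 before and 18167 to 40981 after culture, with overlapping ranges. Endothelial markers summed to 22976 to 33061 before and 3200.2 to 4176 after culture, fibroblast markers to 15611 to 28377 and 2206 to 4422, epithelial markers to 18056 to 37689 and 2522 to 7171, and alveolar macrophage markers to 17286 to 25819.7 and 8094 to 11196. T cell markers summed to 4524 to 5298 before and 4182 to 5329 after culture, and B cell markers to 7142 to 10364 and 5429.7 to 7570.2, with overlapping ranges. In RNA from many cells at once, fewer cells of a type and less RNA per cell cannot be told apart.

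Because ISGF3 acts through letters in the promoter, the sequence before the start of these genes is shown first. RefSeq promoter windows (build GRCm38.p6, 250 bases before to 50 after the start) were matched by symbol for 30 of the 40 genes, and the 10 without one were Usp18, Dhx58, Zbp1, Ifi204, Oas2, Mx1, Mx2, Parp14, Rtp4 and Ifi27. The search was for GAAA, any 2 bases and GAAA again, the core letters of an ISRE, on both strands, so that the other strand reads TTTC, any 2 bases and TTTC. These letters occurred in the window of 14 of the 30 genes (46.7%), and in 3.99% of the 27025 genes and 3.44% of the 32851 windows of the whole RefSeq table. Each sequence below is the 250 bases before the start, 5′ to 3′ on the gene's strand, with the ISRE-like letters in capitals. Ifit1 and Isg15 are shown because they are textbook targets and carry 2 and 3 overlapping or neighbouring matches. Ifit1 is at chr19:34640639-34640888 on the plus strand and Isg15 at chr4:156200819-156201068 on the minus strand.
Ifit1: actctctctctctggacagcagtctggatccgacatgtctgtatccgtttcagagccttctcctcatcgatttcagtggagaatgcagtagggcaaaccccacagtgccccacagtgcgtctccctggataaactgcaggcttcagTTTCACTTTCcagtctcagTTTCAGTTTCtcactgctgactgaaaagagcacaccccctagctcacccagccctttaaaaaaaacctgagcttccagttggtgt
Isg15: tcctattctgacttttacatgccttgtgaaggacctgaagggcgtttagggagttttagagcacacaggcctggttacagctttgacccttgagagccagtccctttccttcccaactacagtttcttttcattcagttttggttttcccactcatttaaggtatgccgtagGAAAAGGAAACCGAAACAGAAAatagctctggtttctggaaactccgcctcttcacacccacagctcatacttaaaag
Herc6, Oasl2 and Ifitm6 are shown because they had the 2 highest and the lowest log2 fold changes of the 39 tested genes and hold no such letters in this window. Herc6 is at chr6:57580742-57580991 on the plus strand, Oasl2 at chr5:114896684-114896933 on the plus strand and Ifitm6 at chr7:141016893-141017142 on the minus strand.
Herc6: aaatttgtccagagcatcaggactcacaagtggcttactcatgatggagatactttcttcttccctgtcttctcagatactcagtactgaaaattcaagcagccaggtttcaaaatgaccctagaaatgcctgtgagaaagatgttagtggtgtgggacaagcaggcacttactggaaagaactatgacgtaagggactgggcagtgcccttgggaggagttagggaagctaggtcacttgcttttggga
Oasl2: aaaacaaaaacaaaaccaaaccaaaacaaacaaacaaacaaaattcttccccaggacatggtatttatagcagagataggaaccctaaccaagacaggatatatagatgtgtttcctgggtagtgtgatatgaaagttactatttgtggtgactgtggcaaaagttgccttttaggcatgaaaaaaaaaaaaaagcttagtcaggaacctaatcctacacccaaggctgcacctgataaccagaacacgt
Ifitm6: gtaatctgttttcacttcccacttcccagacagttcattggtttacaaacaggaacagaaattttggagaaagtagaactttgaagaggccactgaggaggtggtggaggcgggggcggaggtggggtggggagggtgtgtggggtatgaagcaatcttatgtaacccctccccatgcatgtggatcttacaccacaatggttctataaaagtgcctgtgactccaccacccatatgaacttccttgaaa
The absence of a match says only that these letters are not in this window. Shorter stretches around the matches are shown as examples from genes with different calls. A link between the letters and the direction of change was not tested. Oas1a and Ddx60 were higher after culture, Bst2 and Rsad2 were not called, and Ifitm2 was lower. Their places are chr5:120907526-120907557 (minus strand) for Oas1a, chr8:61928022-61928086 (plus) for Ddx60, chr8:71537575-71537614 (minus) for Bst2, chr12:26456551-26456584 (minus) for Rsad2 and chr7:140955986-140956019 (minus) for Ifitm2.
Oas1a: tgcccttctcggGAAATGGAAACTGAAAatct
Ddx60: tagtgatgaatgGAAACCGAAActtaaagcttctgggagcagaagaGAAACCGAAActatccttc
Bst2: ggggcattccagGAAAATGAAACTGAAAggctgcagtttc
Rsad2: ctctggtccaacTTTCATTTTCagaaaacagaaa
Ifitm2: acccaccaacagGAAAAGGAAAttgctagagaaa
Ifit3 (chr19:34583361-34583428, plus strand) and its neighbour Ifit3b (chr19:34607757-34607824, plus strand) carry the same 68 bases around a pair of matches, which begin 156 and 122 bases before the start of Ifit3 and 188 and 154 bases before that of Ifit3b.
Ifit3 and Ifit3b: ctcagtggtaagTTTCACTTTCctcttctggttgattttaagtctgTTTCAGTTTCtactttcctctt

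The letters were found in genes called higher, lower and not called. Only 12 of the 21 higher genes had a window, against all 6 lower ones, so the counts cannot settle a difference between directions. ISRE-like letters were in the windows of 7 of the 12 higher genes with a window, of 2 of the 6 lower ones and of 5 of the 11 not called, and the window of Ifnb1 held none. The 7 were Ddx60, Eif2ak2, Ifih1, Ifit1, Oas1a, Oas3 and Trim30a, and the 2 lower genes were Ifitm2 and Ifitm3. Isg15, which holds 3 overlapping matches, had a log2 fold change of 0.01, while Herc6, Oasl1 and Oasl2 rose with none in the window. The letters TTC, any 3 bases and GAA, which read the same on both strands and form the core of the GAS element of interferon gamma signalling, were in the windows of 10 of the 30 genes (33.3%) and of 9.55% of all genes. Matches of both kinds overlapped in Bst2 and Ifitm3. In the 150 bases before the start, 10 genes kept ISRE-like letters and 4 kept GAS-like letters.

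**Figure D1:**
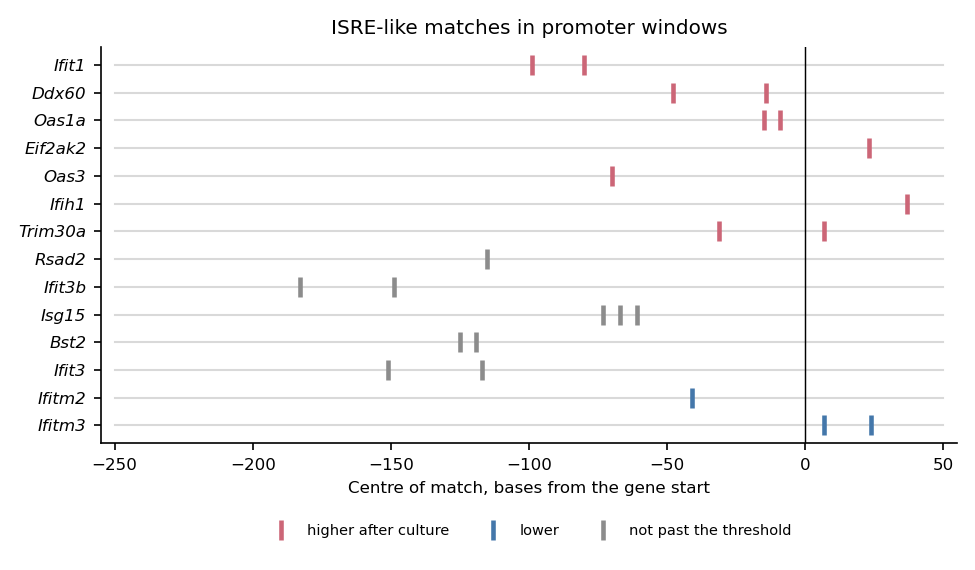
Position of ISRE-like matches in the promoter windows of the 14 genes that hold any, in bases from the gene start (vertical line), coloured by the gene's call after culture. Matches lie both before and just after the start, and genes called higher, lower and not called all carry them.

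As a group the genes were more often higher than lower after culture, and their change was uneven. At an adjusted p under 0.05 (limma on log2 of the normalized count + 1, adjusted over all 18202 genes), 21 of the 39 tested genes were higher and 6 were lower, and 12 were not called. Over all tested genes, 34.2% were called higher and 34.6% lower. The median log2 fold change of the 39 genes was 0.51, against 0.01 over all tested genes, and their range ran from -4.94 (Ifitm6) to 2.47 (Herc6). By the fitted log2 fold change, 11 of the 39 were called and at least 2-fold higher (14.1% of all tested genes) and 5 were called and at least 2-fold lower (18.6%). In 22 of them (57.3% of all tested genes) the 4 after samples all lay above or all below the 5 before samples, 18 above (28.7%) and 4 below (28.6%). In either direction, 68.8% of all tested genes were called, so a call alone is common in this comparison. The shares of 34.2% higher and 34.6% lower apply to every count of called genes in this report that uses all samples and the main fit. In what follows, the values of a gene are normalized read counts in replicates 1 to 5 before and 1 to 4 after culture, means carry the SD over 5 and 4 samples, and a log2 fold change is after minus before with its standard error and adjusted p from limma.

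**Figure D2:**
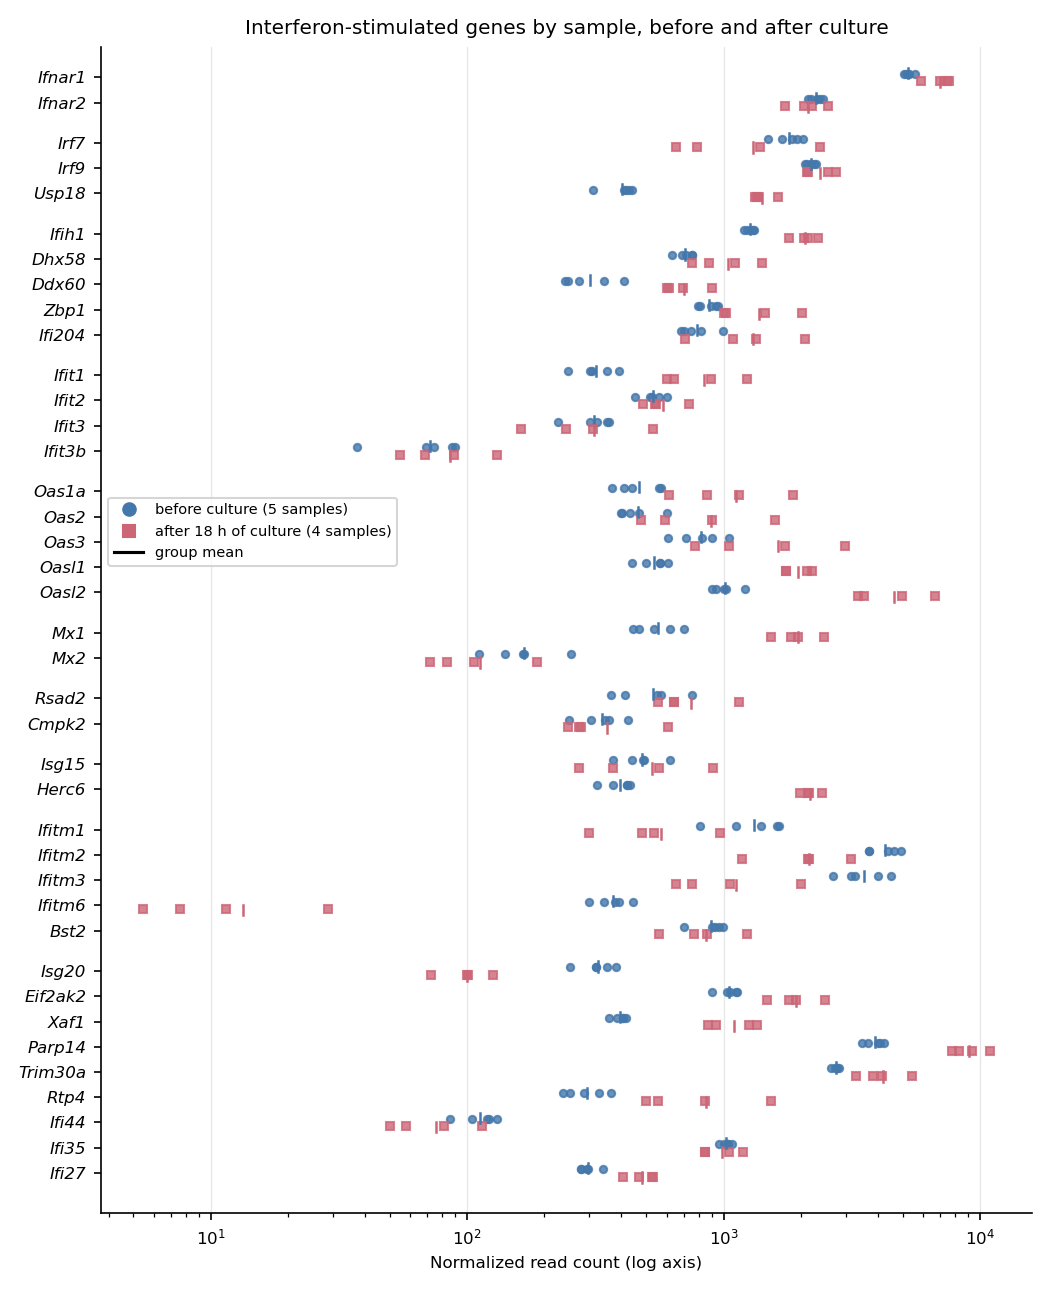
Normalized read count (log axis) of the 39 tested genes in each of the 5 before (circles) and 4 after samples (squares), grouped by role, with a tick at each group mean. The after values of Herc6, Oasl1, Oasl2, Mx1 and Usp18 all lie above the before values, those of Ifitm6 and Isg20 all below, and in many other genes the after samples spread more widely than the before samples.

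The ligand itself was at the limit of detection. Ifnb1 had 1, 1, 0, 1 and 0 reads before culture and 1, 2, 0 and 0 reads after it, so every sample was under a floor of 3 reads and no fold is given. Its receptor chain Ifnar1 had 5145, 5038, 5570.2, 5269 and 5239 before culture and 6978, 7589.9, 5896 and 7438 after it. All 4 cultured samples lay above all 5 uncultured ones, a rise of 1.33-fold from 5252 ± 199 to 6976 ± 765 (log2 fold change 0.40 ± 0.081, adjusted p = 0.000578). The partner chain Ifnar2 had 2139, 2188, 2436, 2307 and 2366 before culture and 2055, 2562, 1741 and 2205 after it, with overlapping groups (log2 fold change -0.11 ± 0.098, unadjusted 95% interval -0.32 to 0.10, adjusted p = 0.346).

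Among the signalling and feedback genes, the inhibitor rose and the transcription factors were called only under some alternative settings. Usp18, a protease that strips ISG15 from proteins and also damps signalling at Ifnar2, had 309, 409.6, 441, 427 and 415 before culture and 1328, 1632, 1349 and 1357 after it. It rose 3.54-fold from 400.4 ± 52.2 to 1417 ± 144 with no overlap between groups (log2 fold change 1.83 ± 0.11, adjusted p = 7.69e-09). Irf9, the DNA-binding subunit of ISGF3, had 2197, 2283, 2072, 2124 and 2261 before culture and 2559.8, 2737, 2129 and 2107 after it (log2 fold change 0.12 ± 0.087, unadjusted 95% interval -0.07 to 0.30, adjusted p = 0.253), and it was called higher under upper quartile scaling (0.22, adjusted p = 0.0284) and a correction for GC content and length (0.34, adjusted p = 0.00281). Irf7, the factor that amplifies transcription of interferon alpha genes, had 1689, 1937, 2039.6, 1489 and 1842 before culture and 1389, 2384, 654 and 786 after it (log2 fold change -0.65 ± 0.28, unadjusted 95% interval -1.26 to -0.03, adjusted p = 0.0581). Its cultured samples ran from below the lowest to above the highest uncultured value, with after replicate 2 at the top. Irf7 was called lower under quantile normalization (-0.64, adjusted p = 0.0461) and without after replicate 2 (-0.9998, adjusted p = 0.000495). It was also called lower with a replicate block by library number, a pairing that the labels do not state (-0.62, adjusted p = 0.0110). Irf7 is also known for a high level in plasmacytoid dendritic cells, and of the 6 markers of these cells that were tested 4 were lower, 1 higher and 1 not called. The remaining marker, Klk1, was at or under 3 reads in every cultured sample. The part of these cells in the values of Irf7 was not tested.

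All 5 sensors of foreign nucleic acid rose (34.2% of all tested genes were called higher). Ifih1 (MDA5), which detects long double-stranded RNA, had 1198, 1283, 1309, 1308 and 1229.7 before culture and 2052, 2332, 1807 and 2129 after it, a rise of 1.64-fold (log2 fold change 0.71 ± 0.08, adjusted p = 3.31e-06). Ddx60, a helicase that assists such RNA sensors, had 273, 342, 248, 409 and 239.9 before culture and 695, 904, 612 and 602 after it and rose 2.33-fold (log2 fold change 1.23 ± 0.17, adjusted p = 2.11e-05). In both genes the lowest cultured sample was above the highest uncultured one. Dhx58 (LGP2), a relative of Ifih1 that tunes its activity, had 754, 688, 755, 632 and 714 before culture and 1109, 1416, 756 and 877 after it (log2 fold change 0.51 ± 0.15, adjusted p = 0.00726), and the lowest cultured value only just cleared the highest uncultured one. Zbp1, a sensor of Z-form nucleic acid that can trigger necroptosis, had 797, 949, 935, 810.2 and 895 before culture and 1446, 2026, 1024 and 999.7 after it (log2 fold change 0.59 ± 0.17, adjusted p = 0.00786). Ifi204, a DNA-binding protein of the PYHIN family, had 681, 818, 993, 749 and 703 before culture and 1336, 2082, 706 and 1093 after it with overlap between groups (log2 fold change 0.63 ± 0.23, adjusted p = 0.0266). Its rise depended on a few samples. Without after replicate 2 its log2 fold change was 0.37 with an adjusted p of 0.0826, and it lost its call also without after replicate 1, before replicate 1 or before replicate 5, and under a correction for GC content and length. Ifi204 was not called either with a replicate block by title number (0.59, adjusted p = 0.0662). In the reference annotation, 30.2% of its 50-base windows also occur in other transcripts, chiefly of Ifi211, so reads may have been split between these genes.

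The IFIT genes, whose proteins bind foreign RNA and hinder its translation, parted ways. They lie side by side on chromosome 19, from Ifit2 at 34550550 to the end of Ifit1 at 34650009 (GRCm38). Ifit1 had 248, 306, 393, 349.9 and 301 before culture and 894, 1229.7, 603 and 642 after it and rose 2.64-fold from 319 ± 54.8 to 842 ± 289 with no overlap (log2 fold change 1.35 ± 0.19, adjusted p = 3.09e-05). Ifit2 had 451, 518, 601, 559 and 526 before culture and 548, 736, 487 and 542 after it (log2 fold change 0.11 ± 0.12, unadjusted 95% interval -0.15 to 0.37, adjusted p = 0.44). Ifit3 had 226, 359, 350.0, 321 and 301 before culture and 310.0, 529, 162 and 243 after it (log2 fold change -0.12 ± 0.26, unadjusted 95% interval -0.68 to 0.45, adjusted p = 0.714). The cultured values of both overlapped the uncultured ones, and in Ifit3 the means were equal to 3 digits at 311 before and 311 after culture. Ifit3b had 37.1, 74.2, 89.8, 69.5 and 87.7 before culture and 89.2, 130.4, 54.6 and 68.4 after it (log2 fold change 0.24 ± 0.29, unadjusted 95% interval -0.38 to 0.87, adjusted p = 0.475). Ifit3 and Ifit3b share 51.2% and 45.0% of their 50-base windows with other transcripts, chiefly with each other, so their separate values are uncertain.

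All 5 genes of the OAS family rose (34.2% of all tested genes were called higher). Oas1a, Oas2 and Oas3 encode enzymes that make the oligoadenylate messenger of RNase L, which degrades RNA. Oasl1 and Oasl2 are related proteins. Oasl2 had 902, 1005, 1217, 931 and 1026 before culture and 4974, 6655, 3351 and 3528 after it, a rise of 4.55-fold from 1016 ± 124 to 4627 ± 1535 (log2 fold change 2.14 ± 0.17, adjusted p = 1.17e-07). Oasl1, which is known to restrain translation of Irf7, had 498, 564, 563, 439 and 607 before culture and 2203, 2111, 1747 and 1755 after it and rose 3.66-fold (log2 fold change 1.87 ± 0.11, adjusted p = 4.89e-09). In both of these the groups lay far apart. Oas1a had 408, 569, 561, 367 and 439 before culture and 1144, 1864, 612 and 859 after it (log2 fold change 1.15 ± 0.25, adjusted p = 0.00107), and it shares 57.6% of its 50-base windows with other transcripts, chiefly of Oas1g. Oas2 had 399.9, 469, 604, 403 and 433 before culture and 905, 1591, 477 and 589.9 after it, and its lowest cultured sample lay within the uncultured range (log2 fold change 0.80 ± 0.27, adjusted p = 0.0174). Oas3 had 607, 905, 1049, 713 and 823 before culture and 1735, 2977, 775 and 1052 after it, again with overlap (log2 fold change 0.83 ± 0.30, adjusted p = 0.0253). The calls of these last genes depended on single samples. Without after replicate 1 the adjusted p was 0.0502 for Oas2 and 0.0739 for Oas3, and Oas3 lost its call also without after replicate 2 (log2 fold change 0.48, adjusted p = 0.0731) or before replicate 1.

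The 2 MX genes, neighbours on chromosome 16 that encode dynamin-like GTPases, differed. Mx1 had 468, 444, 536, 620.2 and 698 before culture and 1828, 1536, 2464 and 1957 after it and rose 3.52-fold from 553 ± 106 to 1946 ± 387 (log2 fold change 1.81 ± 0.15, adjusted p = 1.6e-07). Most inbred strains, C57BL/6 among them, carry an Mx1 allele with a deletion that gives no working protein, so this is a change in transcript. Mx2 had 141, 111, 166, 254 and 165 before culture and 106, 187, 83.7 and 71.5 after it, with overlap (log2 fold change -0.62 ± 0.27, unadjusted 95% interval -1.21 to -0.03, adjusted p = 0.0578). It was called lower without after replicate 2 (log2 fold change -0.90, adjusted p = 0.00418) and without before replicate 2 (-0.76, adjusted p = 0.0296). Mx2 was also called lower with a replicate block by library number (-0.76, adjusted p = 0.0126). Rsad2, which encodes viperin, an enzyme that makes a chain-terminating nucleotide, had 363, 549, 753, 412 and 571 before culture and 641, 1151, 554 and 639 after it (log2 fold change 0.48 ± 0.23, unadjusted 95% interval -0.01 to 0.97, adjusted p = 0.0736). It was called higher under upper quartile scaling (0.59, adjusted p = 0.0252), quantile normalization (0.55, adjusted p = 0.0310) and DESeq2 (0.49, adjusted p = 0.0493), and without before replicate 3 (0.62, adjusted p = 0.0218) or after replicate 3 (0.60, adjusted p = 0.0362). Rsad2 was also called higher with a replicate block by library number (0.51, adjusted p = 0.00101). Its neighbour on chromosome 12, the nucleotide kinase gene Cmpk2, had 250.4, 424, 357, 346 and 304 before culture and 272, 609, 248 and 279 after it (log2 fold change -0.02 ± 0.23, unadjusted 95% interval -0.52 to 0.49, adjusted p = 0.954). In this pair after replicate 2 stood above the other 3 cultured samples, which lay within or near the uncultured range.

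ISG15 is a ubiquitin-like protein that is attached to other proteins, and in mice Herc6 is the ligase that attaches it. Herc6 had the highest log2 fold change of the 39 genes. It had 370.4, 421, 433, 418 and 322 before culture and 2159.7, 1995, 2430.3 and 2132 after it, a rise of 5.55-fold from 393 ± 46.2 to 2179 ± 182 (log2 fold change 2.47 ± 0.1, adjusted p = 1.54e-10). The log2 range over the cultured samples was 0.28. In the reference annotation, 23.8% of its 50-base windows also occur in other transcripts, chiefly of Gm45193, a model on the same strand that overlaps it. Isg15 itself had 438, 489, 618, 370.0 and 487 before culture and 559, 908, 273 and 371 after it (log2 fold change 0.01 ± 0.27, unadjusted 95% interval -0.58 to 0.59, adjusted p = 0.981). Its cultured samples ran from below to above the whole uncultured range. The other enzymes of this pathway, Uba7 and Ube2l6, which activate and carry ISG15, are no members but rose with Herc6. Uba7 went from 2108 ± 88.8 to 5908 ± 759 (log2 fold change 1.48 ± 0.086, adjusted p = 4.73e-09) and Ube2l6 from 794 ± 23.9 to 2577 ± 78.5 (log2 fold change 1.70 ± 0.064, adjusted p = 8.18e-11).

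The IFITM genes, which encode small membrane proteins that block fusion of viruses with cell membranes, were the group that fell. All 4 of them were lower after culture (34.6% of all tested genes were called lower). Ifitm6 had 343, 379, 442, 299 and 390.2 before culture and 11.5, 28.8, 5.46 and 7.60 after it, a fall of 27.8-fold from 370.5 ± 53.6 to 13.3 ± 10.6 (log2 fold change -4.94 ± 0.34, adjusted p = 2.96e-08). The size of this fall depended on after replicate 2, and without that sample it was 45.3-fold. Ifitm3 had 3262, 4014, 4484, 2659 and 3147 before culture and 1061, 1998, 653 and 750.4 after it and fell 3.15-fold (log2 fold change -1.77 ± 0.26, adjusted p = 4.32e-05). Ifitm2 had 4372, 3677, 4914, 3699.5 and 4606 before culture and 2146, 3131, 1181 and 2126 after it and fell 1.98-fold (log2 fold change -1.06 ± 0.21, adjusted p = 0.000467). In these 3 genes every cultured sample was below every uncultured one, and after replicate 2 was the highest of the cultured samples. Ifitm1 had 1650.1, 1117, 1611, 812 and 1398 before culture and 537, 969, 298 and 479.7 after it, with overlap (log2 fold change -1.29 ± 0.28, adjusted p = 0.00112). These 4 genes lie together on chromosome 7, from 140954837 to 141016892 (GRCm38), and Ifitm2 shares 48.5% of its 50-base windows with other transcripts, chiefly the overlapping model Gm45717. Neutrophil markers fell beside them. All 7 tested were lower, Ly6g was at 0 in every cultured sample, and the marker Cxcr2 went from 880.4 ± 327 to 23.3 ± 12.8 (log2 fold change -5.23 ± 0.30, adjusted p = 4.73e-09). Markers of monocytes and interstitial macrophages were 5 lower, 1 higher and 4 not called of 10, with none at 0. All 7 endothelial, all 6 fibroblast and all 6 epithelial markers were lower as well, and of 7 alveolar macrophage markers 5 were lower, 1 was higher and 1 was not called. The part of these cells in the IFITM values was not tested. Bst2 (tetherin), which holds budding virus at the cell surface, had 994, 928, 959, 699.7 and 904 before culture and 862, 1235, 559 and 769 after it (log2 fold change -0.11 ± 0.18, unadjusted 95% interval -0.50 to 0.27, adjusted p = 0.59).

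Among the 9 other effectors, 6 were higher and 2 lower (34.2% and 34.6% of all tested genes). Parp14, an ADP-ribosyltransferase, had 3480.1, 4071, 3991, 4203 and 3659 before culture and 9337, 10901, 7792 and 8258 after it and rose 2.34-fold (log2 fold change 1.22 ± 0.099, adjusted p = 1.37e-07). Xaf1, a promoter of cell death, had 357, 384, 415, 405 and 405 before culture and 1252, 1353, 937 and 870.5 after it and rose 2.81-fold (log2 fold change 1.46 ± 0.13, adjusted p = 2.35e-07). Rtp4, a chaperone of membrane receptors, had 236, 328, 365, 252 and 285 before culture and 846, 1528, 500.4 and 556 after it, a rise of 2.93-fold with a wide spread among cultured samples (log2 fold change 1.42 ± 0.26, adjusted p = 0.00032). Eif2ak2 (PKR), the kinase that stops translation when double-stranded RNA is present, went from 1049 ± 89.7 to 1922 ± 426 (log2 fold change 0.85 ± 0.13, adjusted p = 4.52e-05). Ifi27 went from 297 ± 24.5 to 482 ± 59.3 (log2 fold change 0.69 ± 0.11, adjusted p = 6.94e-05), and Trim30a, a ubiquitin ligase of the TRIM family, went from 2737 ± 69.2 to 4181 ± 916 (log2 fold change 0.59 ± 0.11, adjusted p = 0.000446). In all 6 the groups did not overlap. Trim30a lost its call under a correction for GC content and length (log2 fold change 0.23, adjusted p = 0.155).

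The 2 lower effectors were Isg20 and Ifi44. Isg20, an exonuclease that degrades RNA, had 318, 319, 350.0, 251 and 381 before culture and 72.4, 126, 101 and 99.6 after it and fell 3.25-fold from 324 ± 48.3 to 99.7 ± 21.8 with no overlap (log2 fold change -1.70 ± 0.17, adjusted p = 8.48e-07). Ifi44 had 105, 131, 122, 119.7 and 85.9 before culture and 81.3, 114, 50.04 and 57.8 after it, with overlap (log2 fold change -0.62 ± 0.23, adjusted p = 0.0274). Ifi44 was no longer called under upper quartile scaling, under quantile normalization and when any of 4 samples was left out (before replicate 2 or 3, after replicate 3 or 4), with adjusted p from 0.0542 to 0.119. Ifi35, which takes part in the same response, had 1002, 960.3, 1042, 1079 and 1036 before culture and 1054, 1187, 844 and 845 after it (log2 fold change -0.07 ± 0.10, unadjusted 95% interval -0.30 to 0.15, adjusted p = 0.541), and under a correction for GC content and length it was called higher (0.24, adjusted p = 0.0469).

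**Figure D3:**
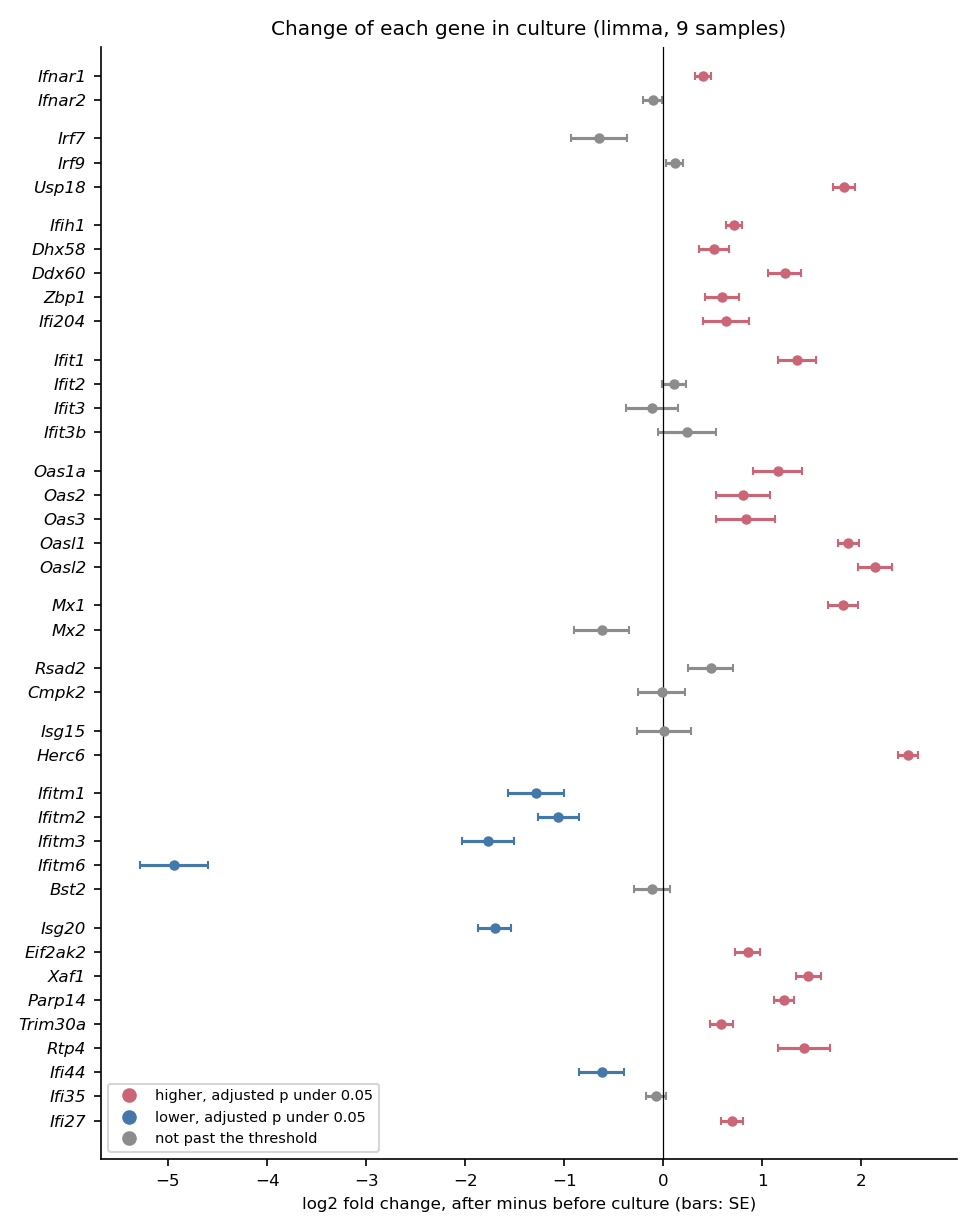
Log2 fold change, after minus before culture, of the 39 tested genes with its standard error (bars), grouped by role and coloured by call. The OAS genes and the sensors lie to the right of 0, the 4 IFITM genes to the left, and Ifitm6 stands apart at -4.94.

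The cultured samples differed among themselves in these genes more than the uncultured ones did. The median log2 range over the 4 after samples was 1.02 for the 39 genes and 0.49 for all tested genes. Over the 5 before samples these medians were 0.51 and 0.51. After replicate 2 was the highest of the 4 cultured samples in 35 of the 39 genes (33.0% of all tested genes), and after replicate 3 was the lowest in 30 (33.7%). Both held in 28 genes (21.7%). The log2 difference of after replicate 2 minus after replicate 3 had a median of 0.99 over the 39 genes and 0.02 over all tested genes, and it was above 1 in 19 of the 39 genes (48.7%) and in 3.28% of all tested genes. These shares are descriptions of 2 samples, and with 1 sample on each side no test of them is given.

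This spread ran across roles and calls. The ratio of after replicate 2 to after replicate 3 was 5.28 for Ifitm6, 3.84 for Oas3, 3.64 for Irf7, 3.33 for Isg15 and 3.05 for Rtp4, genes that were lower, higher and not called. Ratios close to 1 were seen in Usp18 and Oasl1, at 1.21 each, and in Isg20 at 1.25. Mx1 and Herc6 went the other way, with their highest cultured value in after replicate 3 and their lowest in after replicate 2, at ratios of 0.62 and 0.82. Among genes with a high rise, Oasl2 and Ifit1 followed the common order, at ratios of 1.99 and 2.04. Of 59 tested other interferon-stimulated genes on a list kept apart from the 40, 44 were highest in after replicate 2 and 32 were lowest in after replicate 3.

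Markers of monocytes and interstitial macrophages were also highest in after replicate 2 and lowest in after replicate 3. Their 10 genes summed to 27882, 40981, 18167 and 30368 in after replicates 1 to 4, with 9 of 10 highest in after replicate 2, 9 of 10 lowest in after replicate 3 and none at 0. C1qa, a complement gene of macrophages, had 1706, 3240.3, 799.8 and 1699 in these samples, and Csf1r, the receptor for macrophage colony-stimulating factor, had 14638, 19036, 9698 and 16159. Neutrophil markers summed to 1268, 1701, 824 and 1254, and markers of type 1 conventional dendritic cells to 29244, 30052, 26975 and 29411. Of their tested genes, 6 of 7 and 3 of 9 were highest in after replicate 2. Lowest in after replicate 3 were 4 of 7 and 3 of 9. Other lists had another order. T cell markers summed to 4420.1, 4182, 5329 and 4856 and NK cell markers to 295, 255, 405 and 274, both with after replicate 3 highest and after replicate 2 lowest. Mature dendritic cell markers summed to 171691, 155326, 169515 and 159966, with after replicate 2 lowest, and epithelial markers to 2522, 2845, 7171 and 2962, with after replicate 3 highest. Alveolar macrophage markers summed to 10900, 11196, 10711 and 8094, and fibroblast markers to 3033, 4422, 2853 and 2206. Endothelial markers summed to 3200.2, 4176, 3993 and 3958. These sums were highest in after replicate 2, and none was lowest in after replicate 3. In that order, 2 of 7, 5 of 6 and 2 of 7 genes were highest in after replicate 2. The B cell sum was highest in after replicate 3 and that of plasmacytoid dendritic cells in after replicate 4. By library name, after replicates 2 and 3 carry the numbers 3 and 4, as do before replicates 3 and 4. Before culture, the monocyte and interstitial macrophage sum and the neutrophil sum were also highest in before replicate 3 and lowest in before replicate 4. Epithelial, NK and T cell sums were highest in before replicate 4. The sum of type 1 conventional dendritic cell markers was lowest in before replicate 3. The part of these cells in the spread of the interferon genes was not tested. The labels give no date or batch for the samples.

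**Figure D4:**
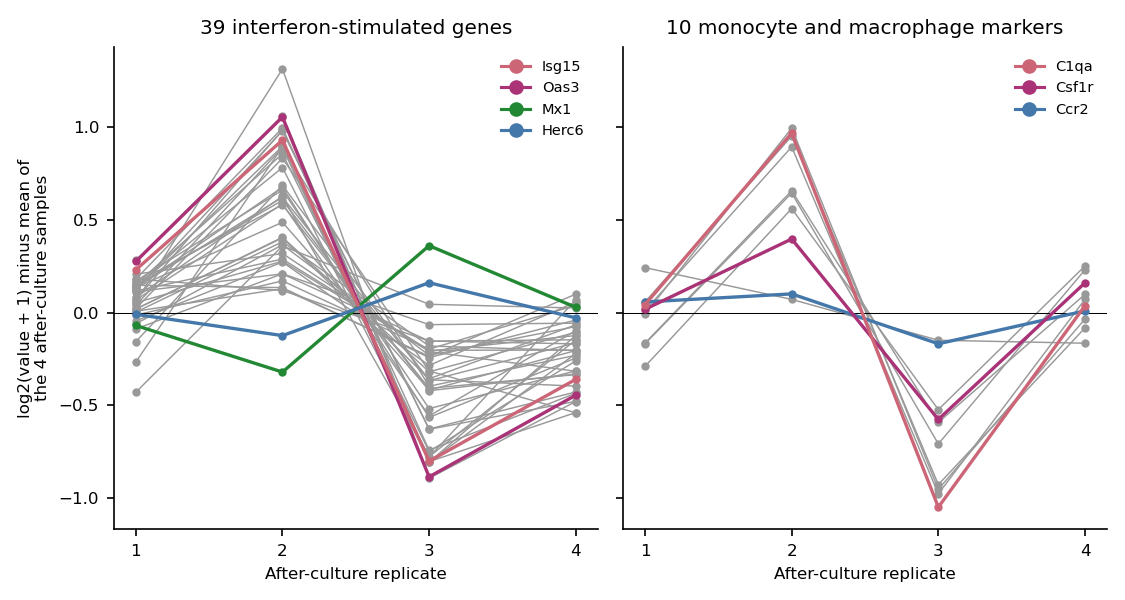
Log2(value + 1) of each gene in after replicates 1 to 4 minus its mean over these 4 samples, for the 39 interferon-stimulated genes (left) and 10 monocyte and macrophage markers (right). Lines join the values of 1 gene and imply no order of replicates. Most lines in both panels peak at replicate 2 and are lowest at replicate 3, while Mx1 and Herc6 run the other way.

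Without after replicate 2, 19 of the 39 genes were higher and 8 were lower. Of all tested genes called in that setting, 49.3% were higher, against 49.7% with all samples. These percentages give the balance of directions among calls. The shares of all tested genes called without that sample are not given here, so these counts have no matching background. Ifi204 and Oas3 were no longer called, and Irf7 (log2 fold change -0.9998, adjusted p = 0.000495) and Mx2 (-0.90, adjusted p = 0.00418) became lower. The number of genes whose cultured samples all lay below the uncultured ones then went from 4 to 8, while the share of all tested genes went from 28.6% to 31.2%. Leaving out a cultured sample can raise such a count and cannot lower it. The median log2 fold change of the 39 genes went from 0.51 to 0.36. Over all cases of 1 sample left out, 18 to 22 of these genes were higher and 5 to 8 lower, and 49.3% to 49.8% of all genes called were higher.

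**Figure D5:**
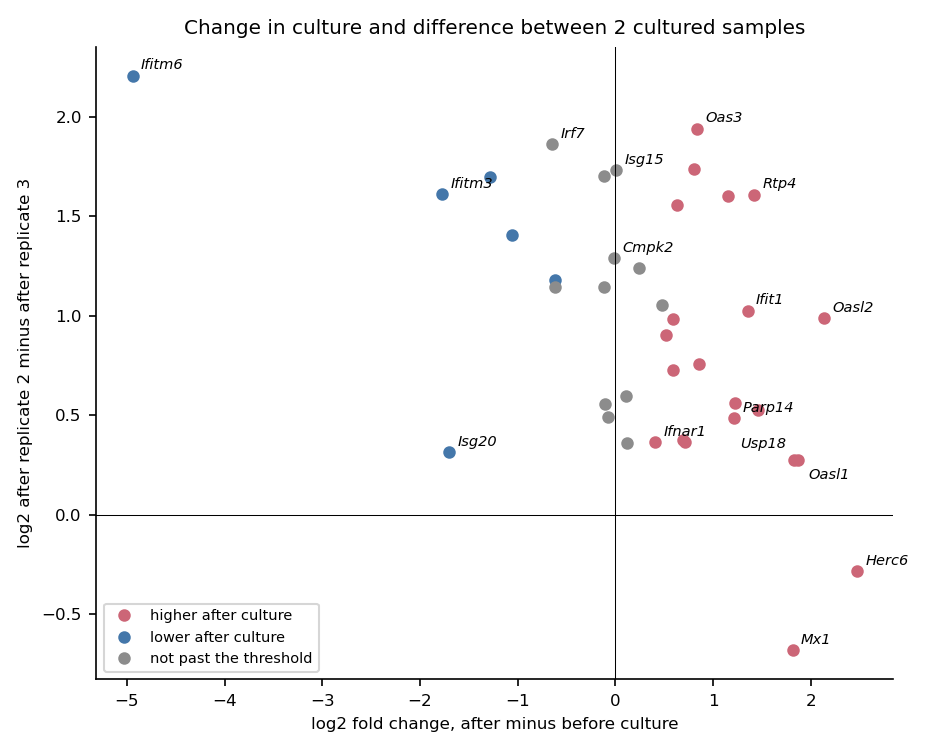
Log2 difference of after replicate 2 minus after replicate 3 (vertical) against the log2 fold change in culture (horizontal) for the 39 tested genes, coloured by call. Ifitm6, Oas3, Irf7 and Isg15 lie high on the vertical axis although their changes in culture range from -4.94 to 0.83, and of the 39 genes only Mx1 and Herc6 lie under 0.

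Levels can be set against each other only per length. On the scale of normalized counts per kilobase of the longest transcript, the highest level before culture was that of Ifitm2 at 6494 ± 841, followed by Ifitm3 at 5182 ± 1074, Ifitm1 at 1494 ± 400.4 and Ifnar1 at 1344 ± 51.0 (mean ± SD, n = 5). The levels of Ifitm1 and Ifnar1 differed by less than the SD of Ifitm1. After culture Ifitm2 was still first at 3276 ± 1216, and then came Ifnar1 at 1784 ± 196, Ifitm3 at 1645 ± 905 and Oasl2 at 1482 ± 492 (mean ± SD, n = 4). These last 3 differed from each other by less than the SD of Ifitm3. Ranked among the 40 genes on this scale, Herc6 moved from 35 to 20, Oasl2 from 15 to 4, Usp18 from 24 to 9, Irf7 from 11 to 25 and Ifitm6 from 13 to 39. Apart from Ifnb1, the lowest levels before culture were those of Ifi44 at 27.7 ± 4.37 and Ifit3b at 35.8 ± 10.6.

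The receptor and ISGF3 list, 9 genes kept apart from the 40, had 4 genes higher and none lower. Over all tested genes these shares were 34.2% and 34.6%. Stat2, a subunit of ISGF3, had 4787, 4017, 4042, 4272 and 4641 before culture and 4605, 5127, 3814 and 3838 after it (log2 fold change -0.01 ± 0.098, unadjusted 95% interval -0.22 to 0.20, adjusted p = 0.936). The kinases Jak1 (log2 fold change 0.20 ± 0.066, adjusted p = 0.0138) and Tyk2 (log2 fold change 0.39 ± 0.077, adjusted p = 0.000519) rose, as did the repressor Irf2 (log2 fold change 0.37 ± 0.076, adjusted p = 0.000685). Irf1, an activator with its own sites in many of these promoters, had a log2 fold change of 0.11 (adjusted p = 0.282, limma). Under a correction for GC content and length 8 of the 9 were called higher and 1 lower, Stat2 (0.33, adjusted p = 0.00685) and Irf1 (0.42, adjusted p = 0.000755) among the higher ones. The same correction moved the median over all tested genes from 0.01 to 0.13, and 58.2% of all genes called under it were higher, against 49.7% without it.

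The 14 sensors and adaptors that lead to interferon production were divided, with 6 higher and 6 lower (34.2% and 34.6% of all tested genes). Rigi, the RNA sensor RIG-I, had 1024, 1314, 1213, 1209 and 1058 before culture and 2609, 3691, 2165 and 2452 after it and rose 2.35-fold (log2 fold change 1.21 ± 0.13, adjusted p = 2.85e-06), and Tlr7, an endosomal receptor for single-stranded RNA, rose 2.74-fold (log2 fold change 1.44 ± 0.15, adjusted p = 1.38e-06). The adaptor Traf3 (log2 fold change 0.93 ± 0.071, adjusted p = 7.81e-08) and the kinase Tbk1 (log2 fold change 0.67 ± 0.07, adjusted p = 1.6e-06) rose as well. Tlr3, the receptor for double-stranded RNA that is known for its high level in type 1 conventional dendritic cells, had 3095, 2618, 2292, 3159 and 2871 before culture and 247, 371, 205 and 287 after it, a fall of 10.1-fold (log2 fold change -3.36 ± 0.15, adjusted p = 3.65e-10). Tlr9, a receptor for DNA, fell 1.99-fold (log2 fold change -0.99 ± 0.081, adjusted p = 1.5e-07) and the adaptor Myd88 2.53-fold (log2 fold change -1.36 ± 0.14, adjusted p = 1.17e-06). Irf3, the factor that first switches on Ifnb1, had a log2 fold change of -0.14 (adjusted p = 0.17, limma), and of 0.36 (adjusted p = 0.00112) under a correction for GC content and length.

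Transcripts of other interferons were scarce. Of 19 ligand genes, 12 were listed at 0 in every sample and 2 were tested. Ifng, the interferon of T and NK cells, had 108, 121, 165, 195 and 98.4 before culture and 10.6, 6.82, 20.9 and 9.12 after it and fell 11.6-fold (log2 fold change -3.49 ± 0.30, adjusted p = 2.85e-07). All 5 NK cell markers were lower beside it, and their sum went from 1259 to 2629.8 before to 255 to 405 after culture. T cell markers were 1 higher, 2 lower and 3 not called of 6, and their sums are given above. The part of these cells in the value of Ifng was not tested. Ifnk had a log2 fold change of -0.07 (adjusted p = 0.862, limma). Of the 4 receptor chains for other interferons, Il10rb (log2 fold change 0.77 ± 0.11, adjusted p = 3.96e-05) and Ifngr2 (log2 fold change 0.43 ± 0.08, adjusted p = 0.000312) rose, and Ifngr1 (log2 fold change -0.89 ± 0.088, adjusted p = 9.82e-07) and Ifnlr1 (log2 fold change -1.50 ± 0.17, adjusted p = 3.46e-06) fell.

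On the list of 61 other interferon-stimulated genes, 59 were tested, 30 were higher and 10 lower, with a median log2 fold change of 0.34. Over all tested genes, 34.2% were called higher and 34.6% lower. Mnda was not matched and Trex1 was listed at 0 in every sample. Ube2l6, Ifi209, a DNA-binding relative of Ifi204 (log2 fold change 2.04 ± 0.078, adjusted p = 8.78e-11), and Dtx3l, a ubiquitin ligase (log2 fold change 1.62 ± 0.063, adjusted p = 9.79e-11), had the smallest adjusted p among the higher genes. Among the lower ones these were Ifi205, another PYHIN gene, with 4329, 3914, 4571, 4412 and 5012 before culture and 253, 309, 221 and 191 after it (log2 fold change -4.20 ± 0.12, adjusted p = 9.48e-12), the surface protein gene Ly6a (log2 fold change -1.51 ± 0.16, adjusted p = 1.44e-06) and Tnfsf10, which encodes the death ligand TRAIL (log2 fold change -1.93 ± 0.20, adjusted p = 1.45e-06). Members of 1 family thus lay at both ends, as Ifi205 fell 18.3-fold and Ifi209 rose 4.10-fold. Ifit1bl1, a relative of Ifit1 singled out after its values were seen, had the highest log2 fold change on this list and rose 8.51-fold from 86.1 ± 24.8 to 732 ± 84.3 (log2 fold change 3.12 ± 0.19, adjusted p = 7.72e-09). Without after replicate 2, 29 genes on this list were higher and 14 lower, and 49.3% of all genes called were higher.

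Genes that respond more to interferon gamma were the last list. Of 12 tested, 7 were higher and 4 lower (34.2% and 34.6% of all tested genes). The guanylate-binding protein genes Gbp5 and Gbp2 had the 2 smallest adjusted p. Gbp5 rose 13.1-fold from 561 ± 28.8 to 7334 ± 1121 (log2 fold change 3.70 ± 0.093, adjusted p = 3.8e-12), Gbp2 rose 9.99-fold (log2 fold change 3.33 ± 0.093, adjusted p = 7.35e-12) and Gbp3 3.36-fold (log2 fold change 1.75 ± 0.091, adjusted p = 1.67e-09). The chemokine genes went the other way. Cxcl9 fell 47.6-fold (log2 fold change -5.52 ± 0.21, adjusted p = 1e-10), and Cxcl10, a chemokine that type I interferon also induces, had 775, 828, 802, 685 and 977 before culture and 120.1, 143, 107 and 83.6 after it (log2 fold change -2.85 ± 0.15, adjusted p = 1.65e-09). Ciita, the master activator of MHC class II genes, fell 6.28-fold (log2 fold change -2.65 ± 0.11, adjusted p = 1.82e-10). The cultured samples of this list did not follow the order seen above, since 5 of its 12 genes were highest in after replicate 2 and 2 were lowest in after replicate 3.

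Some values may be shared with a neighbour on the other strand, because the strand setting of the counting is not given in the sources used here. In the reference annotation, exons of Irf7, Usp18, Dhx58, Oasl1, Ifi35 and Eif2ak2 overlap those of an opposite-strand gene, and exons of Irf9 overlap those of Rnf31 on the same strand.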

How the data were processed

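Total RNA of 5 samples before and 4 after culture was sequenced. Per the submitters' processing notes, DESeq2 and the build GRCm38 were used. The aligner, counter, annotation, strand and filters are not given in the sources used here. The values deposited by the authors are a signal of 0 or more, normalized reads for each gene in 1 table. All values (100%, relative tolerance 1e-06) were whole reads divided by 1 factor per sample, so reads and depth were recovered. Rows without a symbol (3782 of 49317) held 3.87 to 10.9% of reads and were left out. The table holds no columns of other samples.

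Genes with a mean of at least 10 were tested with limma 3.58.1 in R 4.3.3 on log2(value + 1), with group as the only term, a mean-variance trend, two-sided p and Benjamini-Hochberg adjustment over all 18202 genes at 0.05. A log2 fold change on this scale understates the change of low genes. On simulated counts with 100 genes changed 2-fold and 100 changed 4-fold, limma recovered 90 and 96 at a dispersion of 0.02 (18183 genes) and 29 and 93 at 0.1 (18165 genes). False calls made up 2.62% and 7.58% of its calls. In the real comparison 68.8% of tested genes were called, a far larger share than was changed there. These recoveries therefore do not measure the sensitivity of the real comparison. Reads carry no molecular identifiers here, so a floor of 3 reads covers counting error only. The exact permutation test of 5 against 4 samples cannot go below p = 0.0159.

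Lengths, GC content and shared 50-base windows came from GENCODE M21 (GRCm38.p6), promoters from RefSeq (GRCm38.p6). Alternatives were pseudocounts of 0.5 and 8, no filter, a minimum mean of 50, TMM, upper quartile and quantile scaling, edgeR 4.0.16, DESeq2 1.42.0, a correction for GC content and length, replicate blocks and leaving out each sample. Protein sequences were not analysed here. A gene counted on the receptor list is not reported here by name. The members and lists were chosen with earlier results of these data known. Named are all 40 genes, Itgae, genes fixed by name and, of each list, up to 3 genes with the smallest adjusted p in each direction. Tables and figures were made in Python 3.11.15 with pandas 2.3.3, matplotlib 3.10.9, SciPy 1.17.1 and NumPy 2.4.6.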

Additional observations from a re-analysis of the deposited data

Results flagged for a closer look

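In 4 of 78 groups of samples checked (39 genes, before and after culture), 1 sample lay far from the others by Dixon's criterion, which chance gives in about 1 in 20 groups. Usp18 was lowest in before replicate 1 at a normalized count of 309, against 409.6 in the next sample. Usp18 was also highest in after replicate 2 at 1632, against 1357 in the next sample. Rsad2 was highest in after replicate 2 at 1151, against 641 in the next, and Cmpk2 in the same sample at 609, against 279. All 3 high values came from after replicate 2.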

How the results depend on the processing

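Over the settings that keep all samples, 21 to 23 of the 39 genes were higher and 5 to 6 lower, and with 1 sample left out 18 to 22 were higher and 5 to 8 lower. Of all genes called, 49.2% to 58.2% were higher in the former settings and 49.3% to 49.8% in the latter. These are shares of the calls, not of all tested genes. Genes with all cultured samples below all uncultured ones numbered 4 (28.6% of all tested genes), and 4 to 8 with 1 sample left out (29.1% to 32.5%). The correction for GC content and length gave 8 higher and 1 lower of the 9 receptor and ISGF3 genes, and the 150-base window left 4 genes with GAS-like letters. The cause of these changes was not tested. The median of all tested genes moved to 0.11 under upper quartile scaling and 0.13 under that correction, and the median of the 39 genes to 0.62 and 0.34.

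Genes that were not called changed sign under some settings, as log2 fold changes. Under the correction for GC content and length these were Ifnar2 0.088, Ifit2 -0.18, Bst2 0.21, Ifi35 0.24, Stat2 0.33 and Irf3 0.36. Under upper quartile scaling they were Ifnar2 0.0011, Cmpk2 0.091, Ifi35 0.035 and Stat2 0.099, under TMM Cmpk2 0.012 and Stat2 0.020, and under quantile normalization Ifit3 0.020 and Cmpk2 0.11. Cmpk2 was at 0.056 with edgeR and 0.063 with DESeq2. With 1 sample left out, Ifit2 ran from -0.011 to 0.19, Ifit3 from -0.41 to 0.15, Cmpk2 from -0.31 to 0.12, Isg15 from -0.30 to 0.28, Bst2 from -0.31 to 0.071 and Stat2 from -0.093 to 0.049.

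The numbers in the sample titles and those in the library names could each stand for a pairing, but nothing states one. Deviations of same-numbered samples correlated at -0.21 to 0.08 by title number and at 0.04 to 0.35 by library number. By library number each after sample correlated best with its own number. By title number this held for after replicate 1 only. The main fit used neither numbering. Each replicate block leaves out the before sample with no partner. With a replicate block by title number 20 of the 39 genes were higher and 6 lower, and Ifi204 lost its call (0.59, adjusted p = 0.0662). Outside the 39 genes, Stat2 was at 0.014 and Jak1 lost its call (0.20, adjusted p = 0.0595). With a replicate block by library number 22 were higher and 8 lower, Cmpk2 was at 0.072, and Irf7 (-0.62, adjusted p = 0.0110), Mx2 (-0.76, adjusted p = 0.0126) and Rsad2 (0.51, adjusted p = 0.00101) became called. Of all genes called, 49.6% were higher in the block by title number and 49.9% in the block by library number. Depth limits Ifnb1, which was under 3 reads in every sample.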
